A study of Delphinapterus leucas with 24 samples.

Results

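The nuclear-encoded subunits of the mitochondrial respiratory chain were examined in blood of beluga whales (Delphinapterus leucas). The set was defined by 57 Entrez Gene IDs of the NDUF, SDH, UQCR, COX and ATP synthase gene families, of which 49 were listed in the deposited table, among 9855 distinct IDs in all. The other 8 IDs carried no row: NDUF genes 4696, 4700 and 4718, SDH gene 6389, COX genes 1337, 1347 and 1350, and ATP synthase gene 506. An absent row says only that no assembled transcript kept in the table bore that ID. Neither the files nor any reference table used here pairs an ID with a gene symbol or sequence, so each member is given by its family and its Entrez Gene ID, and no individual function is attached to an ID.

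The study asked which blood transcripts vary between sexes or among years. RNA was taken from whole blood of wild animals in August and September of 3 years, with 8 libraries from each of 2012, 2013 and 2014. There were 5 males and 3 females in 2012, 4 males and 4 females in 2013, and 6 males and 2 females in 2014. No treatment or genotype distinguishes the groups. The labels used here give neither the animals' ages nor a way to tell if 1 whale contributed blood in several years. The 2012 libraries date from days 245 to 256 of the year, the 2013 libraries from days 235 to 242 and the 2014 libraries from days 237 to 246. The dates of 2012 and 2013 thus do not overlap. Of the 2014 libraries, only replicate 8 (day 246) falls within the 2012 dates, and all others precede them.

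The respiratory chain sits in the inner mitochondrial membrane. Complex I (NDUF subunits) and complex II (SDH subunits, which also catalyse a step of the citric acid cycle) pass electrons from NADH and succinate to ubiquinone. Complex III (UQCR subunits) hands them to cytochrome c, complex IV (COX subunits) transfers them to oxygen, and ATP synthase, often called complex V, uses the proton gradient built up on the way to make ATP. Most subunits are encoded in the nucleus and a few core ones in mitochondrial DNA. Members were placed in a complex by their gene family alone, and the place of each single ID was not checked. In mammals, mature red cells have lost their mitochondria, whereas reticulocytes, white cells and platelets still carry some. Whole blood RNA therefore holds these transcripts from several cell types at once.

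Levels are given as TPM (the abundance measure written by RSEM, scaled by transcript length and library total and so comparable between genes) after the TPM of all features of one ID had been added and each library divided by a median-ratio factor. All 49 listed members were above 0 in all 24 libraries, and all 49 passed the filter on low values used for testing. Of them, 34 were represented by 1 assembled feature and 15 by several. Depth per library is unknown, because TPM keeps no read count.

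The libraries differed strongly in composition. Transcripts of 4 listed globin IDs, the oxygen-carrying proteins of red cells, took between 2.73% and 54.4% of all TPM, and averaged 16.8 ± 15.9% in 2012, 26.2 ± 14.9% in 2013 and 34.2 ± 11.6% in 2014 (SD, n = 8 each). The median-ratio factors ran from 0.482 to 1.62 and were lowest in the libraries with most globin. The 49 members together took 0.228% to 0.451% of TPM. The libraries 2012 replicate 1 and 2014 replicate 4, which held the most globin, stood apart from their groups in many members. White cell markers were present in all libraries: 5 of 7 neutrophil, 6 of 6 T cell, 5 of 5 B cell and 4 of 4 monocyte marker IDs were listed, as were 6 of 7 erythroid and 4 of 5 platelet marker IDs. None of the 13 IDs for mitochondrially encoded subunits was listed, so nuclear and mitochondrial subunits could not be set side by side.

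The members were expressed well above the typical gene of the table. Their median level was 50.1 scaled TPM, against 16.6 over all 9855 IDs, and 44 of 49 lay above that overall median. A level of 100 or more was reached by 8 members, 17 lay between 50 and 100, 22 between 10 and 50, and 2 below 10.

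The complexes differed in level, in nearly the same order in every library. The median over the listed members, averaged over the 24 libraries, was 141.7 ± 38.0 scaled TPM for complex IV (6 of 9 IDs listed), 81.2 ± 18.1 for complex III (5 of 5), 65.5 ± 13.4 for complex II (3 of 4), 57.4 ± 15.5 for complex V (5 of 6) and 40.04 ± 11.2 for complex I (30 of 33; SD, n = 24). Complex IV ranked highest, complex III next and complex I lowest in every library. In 22 libraries complex II lay above complex V, and in the other 2 the order of that pair was turned. The averages of complexes II and V overlap within their SD between libraries, and their difference within libraries was not tested. Through its 30 members complex I made up the largest share of the summed level (43.4 ± 2.56%), followed by complex IV (25.9 ± 2.31%), complex III (17.6 ± 4.45%), complex V (7.05 ± 0.445%) and complex II (5.92 ± 0.691%). Levels and shares here cover the listed members only, not whole complexes. A further 21 respiratory chain IDs lie outside the set, 17 of them listed, and do not enter these values.

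**Figure D1:**
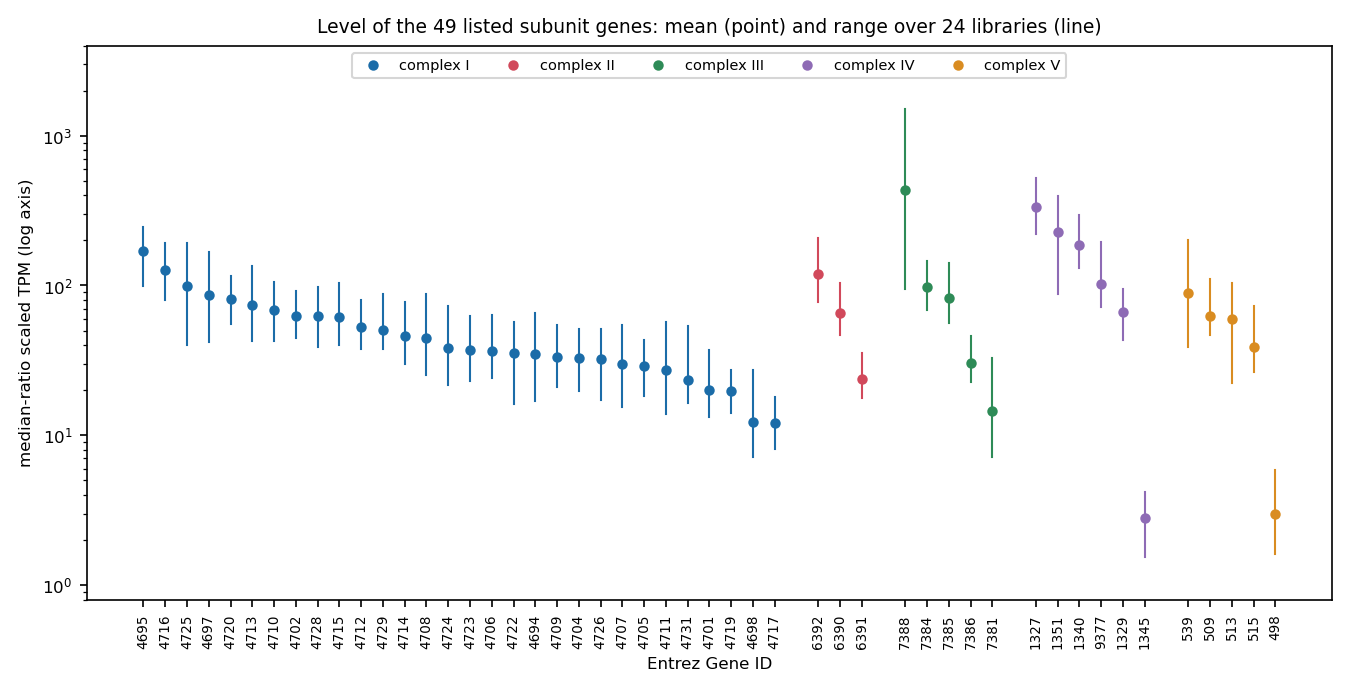
Mean level of each of the 49 listed subunit genes (points) and its range over 24 libraries (lines), in median-ratio scaled TPM on a log axis, with genes on the horizontal axis by Entrez Gene ID, grouped by complex. UQCR gene 7388 has both the highest mean (434.4) and the widest range (95.1 to 1503), while COX gene 1345 and ATP synthase gene 498 lie near 3.

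Among the subunits of complex I, NDUF gene 4695 had the highest mean level (169.8 ± 43.6 scaled TPM) and NDUF gene 4717 the lowest (12.1 ± 2.46; SD, n = 24 here and below). The 30 genes formed a continuous series between these ends, with NDUF gene 4716 second at 127.5 ± 31.9. In complex II, SDH gene 6392 averaged 118.9 ± 30.4, SDH gene 6390 65.5 ± 13.4 and SDH gene 6391 23.8 ± 4.14. Their ranges in the 24 libraries ran from 78.01 to 207.8, from 46.6 to 104.3 and from 17.7 to 35.2. The ranges of genes 6392 and 6390 overlapped, and that of gene 6391 lay below both.

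Complex III held the most abundant member of the whole set. UQCR gene 7388 averaged 434.4 ± 302.7 scaled TPM and by itself made up 36.3% to 81.1% of the complex III sum, depending on the library. UQCR gene 7381 was lowest in that complex, at 14.5 ± 5.58. In complex IV, COX genes 1327 (334.6 ± 77.7), 1351 (225.8 ± 68.3) and 1340 (187.5 ± 47.5) ranked next in the whole set after UQCR gene 7388. COX gene 1345 was the least abundant of the 49, at 2.81 ± 0.701. In complex V, ATP synthase gene 539 averaged 89.6 ± 38.0 and ATP synthase gene 498 2.98 ± 0.937. The lowest and the highest COX gene thus differed by more than the spread of either between libraries, and so did the lowest and highest ATP synthase gene.

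The members varied somewhat more between libraries than the typical ID of the table. The ratio of the highest to the lowest library was under 2 for 2 members, between 2 and 3 for 29 and at or over 3 for 18, with a median of 2.66. The median coefficient of variation was 25.9% for the members and 20.7% for the IDs that passed the filter. UQCR gene 7388 was the exception in size, with a highest library 15.8 times its lowest.

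The members varied together between libraries. Over the 24 libraries the Spearman correlation between 2 members had a median of 0.779 over 1176 pairs, and 95.9% of pairs were positive. Over all pairs of the tested IDs the median was 0.152 and 65.9% were positive. Since these values share libraries, scaling factors and cell composition, they are given as a description. The median was 0.779 for pairs within complex I, 0.814 within complex II, 0.609 within complex III, 0.786 within complex IV and 0.813 within complex V, and 0.777 for pairs between complexes. Pairs within complex III were less alike than pairs between complexes by this median, and 66.7% of pairs within complex IV were positive, against 93.9% of pairs between complexes. These differences were not tested, and they cannot be read as traits of whole complexes, since single genes weigh on them. COX gene 1345 had a mean correlation of -0.66 with the other members, whereas the other listed COX genes had 0.615 to 0.791. In complex III, UQCR genes 7381 (0.446) and 7388 (0.601) had the lowest such means, against 0.754 to 0.769 for the others.

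The 5 most alike pairs were NDUF genes 4714 and 4715 (rho 0.966), NDUF gene 4723 with UQCR gene 7384 (0.964), COX genes 1327 and 1329 (0.962), NDUF gene 4715 with ATP synthase gene 509 (0.962), and NDUF gene 4710 with COX gene 1340 (0.961). Of these pairs, 3 crossed complexes. COX gene 1345 ran against the others, with a mean rho of -0.66 with the other 48 members, and ATP synthase gene 498 was only loosely tied to them (0.233). Both were the members with the lowest levels. UQCR gene 7381 came next (0.446).

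Between 2014 and 2012, 4 subunits rose and the differences of nearly all others were positive without passing the test. The fitted difference (limma, year and sex in the model) was positive for 48 of 49 members, with a median of +0.39 on the log2(scaled TPM + 1) scale, against -0.01 over all 41539 rows tested and +0.12 over all 9851 tested ID rows. The direction depends on the scaling: on the TPM as deposited the median over the members was -0.14 and 11 of 49 were positive, while the median of all rows shifted to -0.42. After Benjamini-Hochberg adjustment over all rows, 4 of 49 members passed an adjusted p of 0.05, all 4 higher in 2014, beside 0.619% of all rows (0.45% higher and 0.169% lower). At an unadjusted p under 0.05 there were 40 of 49 members, 20.4% of all rows and 25.9% of the ID rows. Of the 9851 ID rows, 7308 had a positive difference. In a whole blood sample, more cells of a type and more RNA per cell cannot be told apart. The p-values rest on the scatter among these libraries alone.

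The 4 genes that passed belong to 3 complexes. For NDUF gene 4710, the lowest, median and highest 2014 libraries were at 72.6, 83.2 and 105.9 scaled TPM, against 44.0, 57.9 and 79.2 in 2012. The 2014 median lay above every 2012 library, and the groups overlapped between 72.6 and 79.2. The difference was +0.58 ± 0.12 (log2, SE; limma adjusted p = 0.0393). NDUF gene 4711, also of complex I, had 24.6, 32.9 and 57.1 scaled TPM in 2014, against 13.9, 21.1 and 27.7 in 2012. Its difference was +0.68 ± 0.16 (limma adjusted p = 0.0436), with a short overlap of the groups below 27.7.

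In complex II, SDH gene 6392 had a lowest, median and highest 2014 library of 115.1, 152.7 and 207.8 scaled TPM, against 83.8, 97.7 and 122.9 in 2012. Its difference was +0.55 ± 0.12 (limma adjusted p = 0.0422). In complex V, ATP synthase gene 539 had 76.9, 109.7 and 200.1 scaled TPM in 2014, against 39.0, 67.9 and 96.5 in 2012. Its difference was +0.84 ± 0.19 (limma adjusted p = 0.0431). In both genes the 2014 median lay above every 2012 library while the lowest 2014 libraries fell inside the 2012 range.

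The largest difference did not pass. UQCR gene 7388 differed by +1.38 ± 0.36 (limma adjusted p = 0.0602). It had 367.5, 549.8 and 1503 scaled TPM in its lowest, median and highest 2014 library, against 95.1, 228.3 and 811.3 in 2012. COX gene 1345 was the member with a negative difference, -0.34 ± 0.13 (limma adjusted p = 0.129), and ATP synthase gene 498 lay close to 0 (+0.08 ± 0.16, limma adjusted p = 0.818).

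By complex, 2 of 30 complex I genes, 1 of 3 complex II genes, none of 5 complex III genes, none of 6 complex IV genes and 1 of 5 complex V genes passed in this comparison. The median difference was +0.41 for complex I, +0.35 for complex II, +0.48 for complex III, +0.31 for complex IV and +0.45 for complex V. Whether these medians differ between complexes was not tested. In 16 of the 49 members the 2014 median exceeded the highest 2012 library, and in 0 did every 2014 library exceed every 2012 library. Both counts were made for the members alone. The share over all rows was not counted, so they cannot be read as particular to the members.

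**Figure D2:**
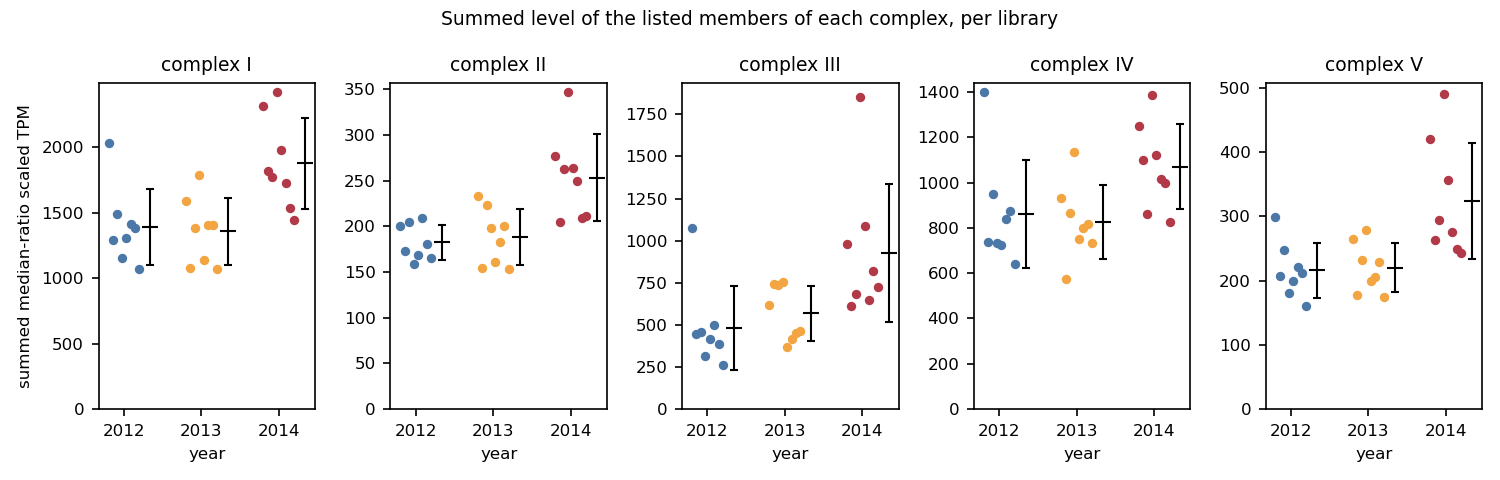
Summed level of the listed members of each complex, in median-ratio scaled TPM, with 1 point per library and the mean ± SD of 8 libraries beside each year. The 2014 means are the highest in all 5 panels, and on the TPM as deposited the median difference of 2014 against 2012 turns negative; 2012 replicate 1 and 2014 replicate 4 are the highest points of their years in most panels.

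These calls were sensitive to single libraries. Without 2012 replicate 1, 28 of 49 members and 1982 of all rows passed, and without 2014 replicate 7 it was 22 members and 1506 rows. No member passed without 2012 replicate 2, 4, 5 or 8, or without 2014 replicate 1, 3, 4, 5 or 6. The count was 1 without 2012 replicate 7 or 2013 replicate 7, 2 without 2013 replicate 3, 7 without 2013 replicate 5 or 8, 8 without 2013 replicate 2 or 4, 11 without 2014 replicate 2 and 14 without 2014 replicate 8, while the count of all rows in these fits ran from 94 to 1153. With the day of the year as a covariate the median over the members was 0.00, and no member or other row passed. Since only 2014 replicate 8 falls within the 2012 dates, year and date can hardly be told apart in this pair. With the log2 globin share as a covariate the median was +0.23 (46 of 49 positive) and no member passed. The same fit without 2012 replicate 1 gave a median of +0.41 (48 of 49 positive), again with no member past the test.

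The summed levels of blood cell markers are given beside these differences, and no test was made on the sums. The summed level of the 6 listed erythroid marker IDs ranged from 50.7 to 2329 scaled TPM in 2012, 165.5 to 1588 in 2013 and 675.3 to 3717 in 2014, and all 6 had a positive difference between 2014 and 2012, with none past the test. The 5 listed neutrophil marker IDs summed to 4239 to 6636 in 2012, 3464 to 9228 in 2013 and 4988 to 11419 in 2014. Of these 5, 3 had a positive and 2 a negative difference between 2014 and 2012, with a median of +0.04, and 1 passed, ID 6279 (+0.93 ± 0.17, limma adjusted p = 0.0261). The monocyte sum ranged from 403.4 to 938.9 in 2012, 317.6 to 940.0 in 2013 and 527.3 to 1279 in 2014. T cell sums lay between 580.6 and 1138, B cell sums between 111.8 and 409.4 and platelet sums between 35.8 and 184.0 over all libraries, and no marker of these 3 lists passed. The part of cell composition in the difference between years was not tested beyond the fit with the globin share.

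Against 2013, no member passed, and none of the 41539 rows did (0%). Still, 47 of 49 differences of 2014 minus 2013 were positive, as were 7855 of the 9851 tested ID rows. The median over the members was +0.46, against -0.005 over all rows and +0.16 over the ID rows. An unadjusted p under 0.05 was reached by 45 members, 21.6% of all rows and 28.85% of the ID rows. On the TPM as deposited the median over the members was +0.03 and that of all rows -0.32. The smallest adjusted p belonged to ATP synthase gene 509 (+0.49 ± 0.11, limma adjusted p = 0.0721), NDUF gene 4710 (+0.54 ± 0.13, limma adjusted p = 0.0721) and NDUF gene 4709 (+0.59 ± 0.14, limma adjusted p = 0.0723).

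ATP synthase gene 509 was the single member whose groups did not overlap in this pair, narrowly, with 63.3, 70.8 and 110.3 scaled TPM in the lowest, median and highest 2014 library, against 46.9, 55.7 and 63.1 in 2013. NDUF gene 4710 had 72.6, 83.2 and 105.9 in 2014, against 42.9, 58.9 and 88.1 in 2013. NDUF gene 4709 had 29.7, 40.8 and 54.6 in 2014, against 21.04, 27.9 and 33.3 in 2013. In 26 members the 2014 median exceeded the highest 2013 library. That count and the lack of overlap in gene 509 likewise have no share over all rows beside them.

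The genes that passed against 2012 had differences of similar size against 2013: SDH gene 6392 +0.48 ± 0.13 (limma adjusted p = 0.0809), NDUF gene 4711 +0.58 ± 0.16 (limma adjusted p = 0.0889) and ATP synthase gene 539 +0.67 ± 0.19 (limma adjusted p = 0.0928). The largest difference was again that of UQCR gene 7388 (+0.87 ± 0.37, limma adjusted p = 0.180), and NDUF gene 4697 followed ATP synthase gene 539 (+0.62 ± 0.17, limma adjusted p = 0.0852). COX gene 1345 (-0.36 ± 0.13, limma adjusted p = 0.120) and ATP synthase gene 498 (-0.20 ± 0.16, limma adjusted p = 0.479) were the 2 negative members. Both 2014 comparisons use the same 2014 libraries, so they are not independent. With the day of the year as a covariate 39 members passed here, all higher in 2014, as did 2447 of all rows. The count reached 16 (1009 of all rows) without 2013 replicate 4, 12 (325 of all rows) without 2014 replicate 7 and 1 (86 of all rows) without 2012 replicate 1.

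Between 2013 and 2012 no subunit passed the test. No member and none of all rows passed (0%), and no member had an unadjusted p under 0.05, against 2.78% of all rows. The median over the members was -0.03. With the day of the year as a covariate it was -0.52, with 1 of 49 positive and none past the test, and the 2013 and 2012 dates do not overlap. The extremes were UQCR gene 7388 (+0.51 ± 0.36), ATP synthase gene 498 (+0.27 ± 0.16), UQCR gene 7381 (+0.24 ± 0.18), NDUF gene 4701 (-0.21 ± 0.15), NDUF gene 4704 (-0.18 ± 0.11) and ATP synthase gene 513 (-0.16 ± 0.20), each with a limma adjusted p of 1.00. In the F test over the 3 years none of the 49 members passed, beside 0.0746% of all rows. An unadjusted p under 0.05 was reached by 43 members, 18.6% of all rows and 23.8% of the ID rows. The smallest limma adjusted p of the members was 0.0649. The count of members past the F test was 23 without 2012 replicate 1 (1022 of all rows) and 11 without 2014 replicate 7 (406). It was 8 without 2013 replicate 4 (359), 8 without 2014 replicate 8 (221) and 2 without 2013 replicate 1 (79).

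**Figure D3:**
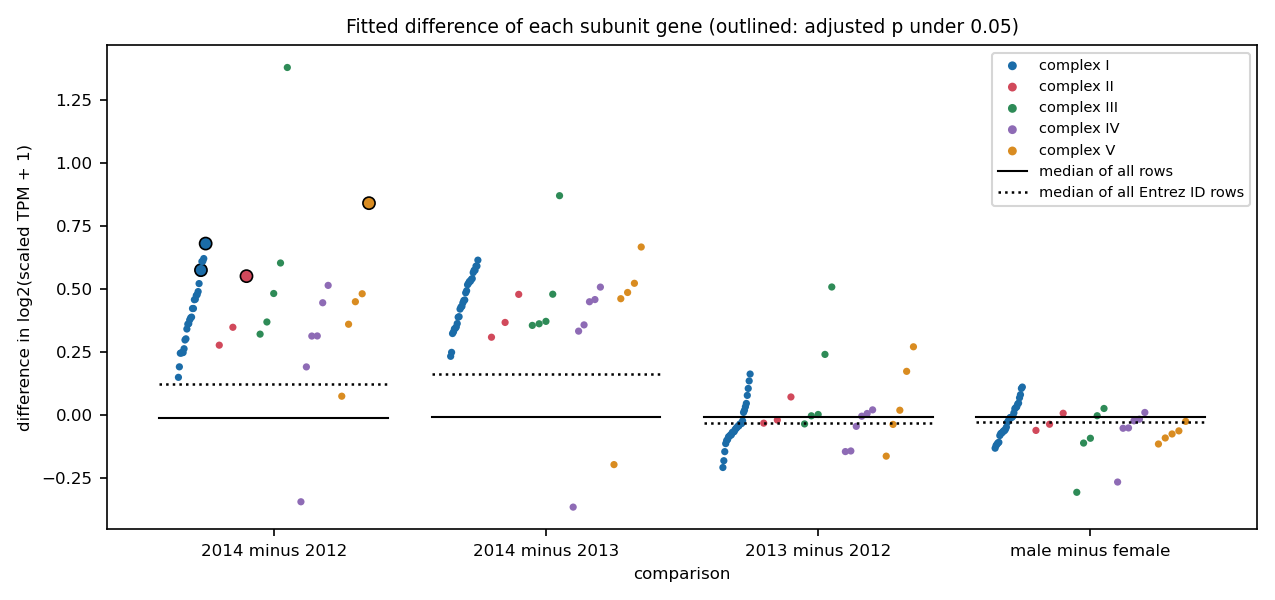
Fitted difference of each of the 49 members in 4 comparisons, on the log2(scaled TPM + 1) scale, coloured by complex, with outlined points for an adjusted p under 0.05 and horizontal lines for the medians over all rows and over all ID rows. The points of 2014 minus 2012 and 2014 minus 2013 lie almost all above both lines (on the TPM as deposited the median of 2014 minus 2012 is -0.14), whereas those of 2013 minus 2012 and male minus female scatter about 0.

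No subunit differed between the sexes past the test. No member passed in the comparison of 15 male with 9 female libraries, beside 0.164% of all rows (0.123% higher and 0.0409% lower in males), and none had an unadjusted p under 0.05, against 4.03% of all rows. The median over the members was -0.04 (male minus female) and 13 of 49 differences were positive. On the TPM as deposited the median was +0.08 and that of all rows also +0.08, and with the globin share as a covariate the median was +0.01.

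The largest sex differences were those of UQCR gene 7388 (-0.31 ± 0.31) and COX gene 1351 (-0.27 ± 0.19), each with a limma adjusted p of 1.00. UQCR gene 7388 had 95.1, 379.0 and 817.8 scaled TPM in the lowest, median and highest male library, against 190.0, 285.0 and 1503 in females. COX gene 1351 had 87.6, 199.2 and 394.5 in males, against 185.3, 225.6 and 342.3 in females. The ranges overlapped broadly in both genes. NDUF genes 4707 (-0.13 ± 0.15), 4710 (-0.12 ± 0.11) and 4704 (-0.11 ± 0.09) lay on the negative side, and NDUF genes 4695 (+0.11 ± 0.13), 4713 (+0.11 ± 0.15) and 4728 (+0.08 ± 0.13) on the positive side, with the limma adjusted p again at 1.00 for each.

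A single subunit had a slope on the globin share that passed the test. With year and sex in the model, the level of UQCR gene 7388 had a slope of 0.67 ± 0.08 log2 units per doubling of the globin share (limma adjusted p = 8.19e-06), and it was the only one of 49 members to pass, beside 0.291% of all rows (0.272% with a positive and 0.0193% with a negative slope). The members' slopes had a median of 0.10, against -0.001 over all rows and 0.036 over the ID rows. Positive slopes were found in 47 of 49 members, 20563 of 41539 rows and 7088 of 9851 ID rows. An unadjusted p under 0.05 was reached by 11 members, 7.66% of all rows and 8.90% of the ID rows. Of the ID rows, 62 passed, all with a positive slope. The members' median was 0.039 without 2012 replicate 1 (42 of 49 positive) and 0.025 without the libraries over 50% globin (40 of 49 positive). In single years it was 0.17 in 2012 (47 of 49 positive), 0.0091 in 2013 (28 of 49) and 0.11 in 2014 (33 of 49). The sign of that median depends on the scaling: on the TPM as deposited it was -0.26, with all rows at -0.28, 46 members passed with a negative slope and, among the members, gene 7388 alone with a positive one (0.29, limma adjusted p = 0.000135). In that fit 33915 of all rows passed.

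The level of UQCR gene 7388 was lowest and highest at the ends of the globin range and less ordered in between, for example 641.1 scaled TPM at 24.8% globin in 2014 replicate 1 and 285.0 at 33.9% in 2013 replicate 8. Its lowest library was 2012 replicate 8, with 95.1 scaled TPM at 2.73% globin, and its highest was 2014 replicate 4, with 1503 scaled TPM at 54.4% globin. In 2012 replicate 1, the other library with most globin, it stood at 811.3, against 95.1 to 287.8 in the remaining 2012 libraries. The sum of the other 48 members varied 2.32-fold over the same libraries, from 2156 to 4999 scaled TPM. The share of gene 7388 in the complex III sum averaged 53.4 ± 11.5% in 2012, 62.4 ± 9.27% in 2013 and 68.4 ± 7.54% in 2014 (SD, n = 8).

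**Figure D4:**
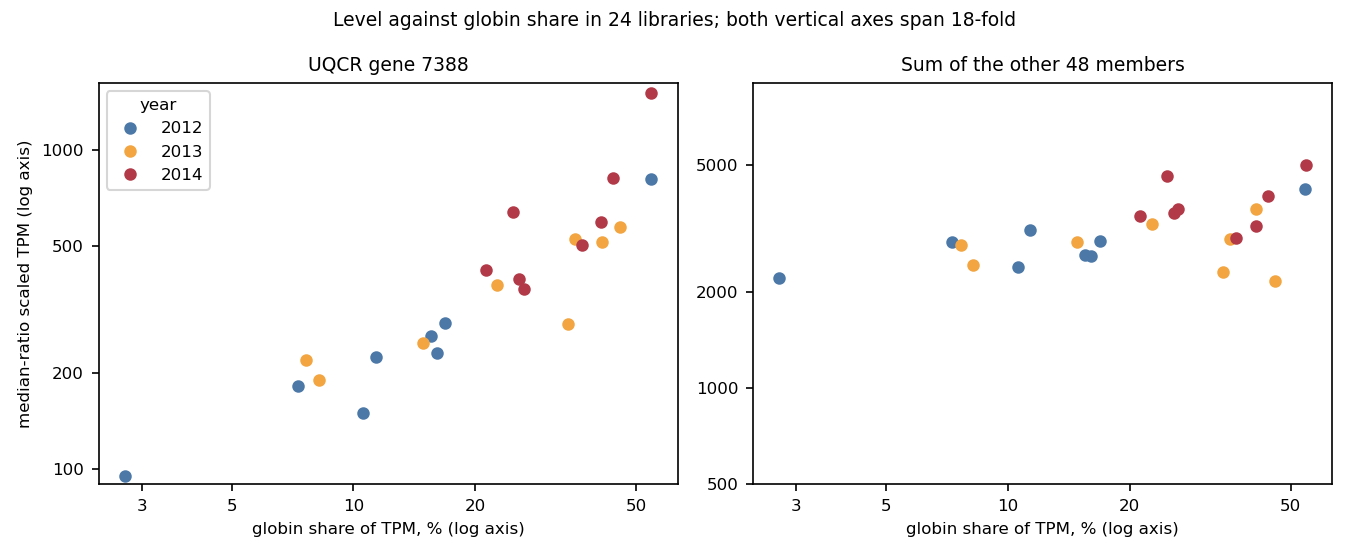
Level of UQCR gene 7388 (left) and summed level of the other 48 members (right) against the globin share of TPM, in median-ratio scaled TPM, 1 point per library coloured by year, all axes logarithmic and both vertical axes covering the same number of folds. Gene 7388 is lowest at 2.73% globin (95.1) and highest at 54.4% (1503), with scatter in between, while the sum of the others lies between 2156 and 4999.

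The slope of gene 7388 passed in every fit over all 3 years. Leaving out 1 library at a time gave 0.59 to 0.71. Without the libraries over 40% globin it was 0.50 (limma adjusted p = 0.0449), and with the replicates of 2012 alone 0.70 (limma adjusted p = 0.000835). In 2013 alone the slope was 0.56 (limma adjusted p = 0.155) and in 2014 alone 0.99 (limma adjusted p = 0.982), both positive but not past the test with 8 libraries. In 2012 alone, NDUF genes 4694 (0.33 ± 0.06, limma adjusted p = 0.0206), 4725 (0.35 ± 0.06, limma adjusted p = 0.0234) and 4697 (0.29 ± 0.06, limma adjusted p = 0.0492) passed as well, among 124 of all rows. The 2012 libraries include replicate 1, which holds far more globin than the rest of its year.

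The next steepest slopes belonged to NDUF genes 4731 (0.26 ± 0.07, limma adjusted p = 0.230), 4725 (0.23 ± 0.08, limma adjusted p = 0.444) and 4708 (0.23 ± 0.07, limma adjusted p = 0.303). The genes that passed between 2014 and 2012 had flatter ones: 0.19 ± 0.08 for ATP synthase gene 539, 0.12 ± 0.07 for NDUF gene 4711, 0.10 ± 0.06 for NDUF gene 4710 and 0.03 ± 0.06 for SDH gene 6392, none past the test. The negative slopes were those of COX gene 1345 (-0.07 ± 0.06) and NDUF gene 4719 (-0.02 ± 0.05). For scale, the 4 globin IDs themselves, which define the share, had slopes with a median of 1.38, and 3 of the 6 listed erythroid marker IDs passed, among them ID 212 (1.28 ± 0.08, limma adjusted p = 1.33e-11) and ID 51327 (1.32 ± 0.12, limma adjusted p = 1.18e-06). The slope of gene 7388 (0.67) was less steep than these values, and lay nearer to the median of 0.85 over the 6 listed erythroid IDs. No neutrophil, T cell, B cell, monocyte or platelet marker passed. All 5 B cell marker IDs had a positive slope, with a median of 0.26, and 4 had an unadjusted p under 0.05. No marker of the neutrophil, T cell, monocyte or platelet lists had an unadjusted p under 0.05.

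**Figure D5:**
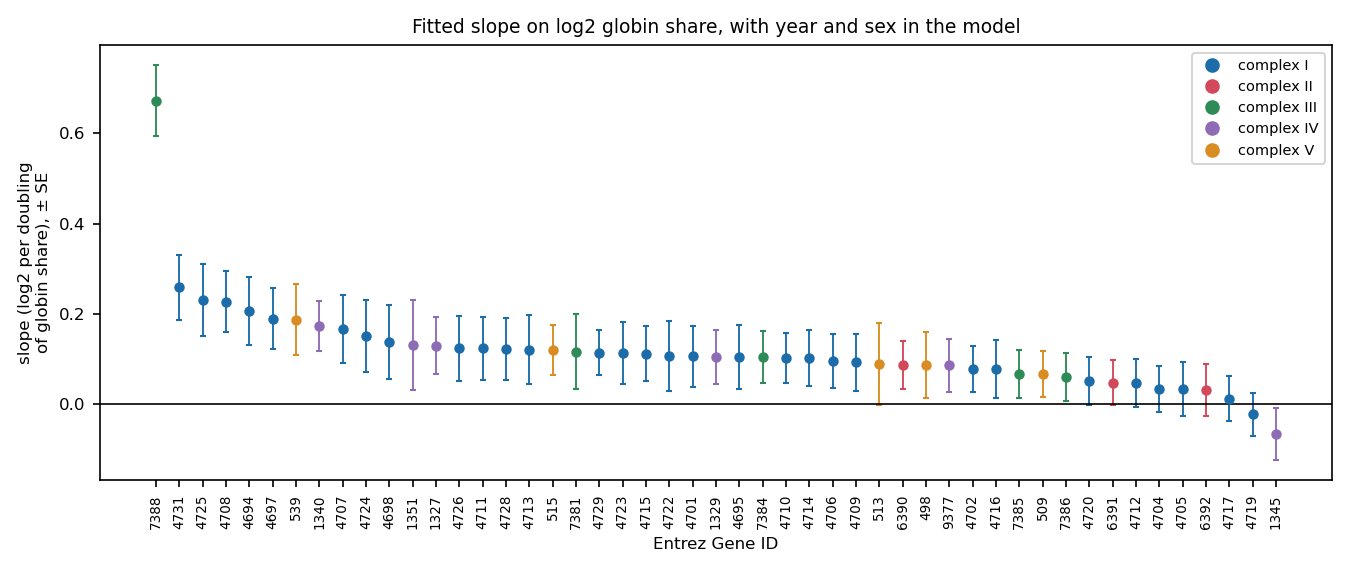
Slope of each of the 49 members on the log2 globin share, in log2 units per doubling with its SE, from the fit with year and sex on median-ratio scaled TPM, ordered by size and coloured by complex. UQCR gene 7388 (0.67) stands apart from the next gene, NDUF gene 4731 (0.26); on the TPM as deposited the median slope of the members is -0.26.

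Related mitochondrial genes were looked up by lists of Entrez Gene IDs. Of 21 further respiratory chain IDs outside the set, 17 were listed. In 2014 minus 2012, 16 of the 17 differences were positive, with a median of +0.46, and none passed. The 2 with the smallest p were IDs 522 (+0.56 ± 0.14) and 10476 (+0.55 ± 0.14), each with a limma adjusted p of 0.0517. In 2014 minus 2013 the median was +0.45, with none past the test.

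Assembly factors, the proteins that put the complexes together without staying in them, were all listed (20 of 20). In 2014 minus 2012, 18 of the 20 were positive with a median of +0.20, and 1 passed, ID 55863 (+0.72 ± 0.17, limma adjusted p = 0.0479). All 11 citric acid cycle IDs were positive in that comparison (median +0.31) and none passed. The 9 IDs of transcriptional regulators of mitochondrial genes had a median of +0.14 and none passed. In 2013 minus 2012 and in male minus female no gene of these 4 lists passed, and none had a slope on the globin share past the test. As with the members, these differences refer to scaled levels. The median of all ID rows was itself at +0.12 in 2014 minus 2012 and +0.16 in 2014 minus 2013.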

How the data were processed

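Per the labels' protocols, RNA was extracted from whole blood with a PAXgene kit and made into strand-directional libraries with a NEBNext Ultra kit. The submitters' processing notes name Trimmomatic, Bowtie2 and RSEM 1.2.21, without role or order, and per the series' design text the transcriptome was assembled with Trinity. The authors deposited TPM per assembled feature. The table lists 45872 features, of which 14079 carry an Entrez Gene ID. No source used here says how IDs were assigned, and 1 cell that holds a date in place of an ID was treated as empty.

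TPM were divided by a median-ratio factor per library, from the 42462 features above 0 in all libraries, and summed per ID. Rows at 1 or more in at least 8 libraries (41539 rows, features without an ID included) were fitted as log2(scaled TPM + 1) with limma 3.58.1 (trend and robust) in R 4.3.3, with year and sex as terms, and p-values were adjusted by the Benjamini-Hochberg method over all rows. The globin share is the percent of deposited TPM in 4 listed globin IDs. Differences on this scale understate the change of low genes. Sums per ID can join reads of near-identical transcripts, and in 4 members the main feature held under 90% of the level.

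The members and the lists of other genes were chosen with earlier results of these data known. The other lists, the marker lists and the globin list were written as Entrez Gene IDs for this work, and could not be checked against a table that pairs IDs with names. Members named in the text are the highest and lowest of each complex, those past an adjusted p of 0.05, otherwise those with the smallest p or largest difference, and, by a choice made after their values were seen, the members that passed in any comparison. On simulated data with 100 changed rows per size, the fit recovered 13 at a log2 difference of 0.5 and 85 at 1 between 2014 and 2012. There were 6 false calls among 41339 rows. For the slope on the globin share it recovered 51 at 0.3 and 97 at 0.6, with 8 false calls. The simulated rows were independent, with the scatter left after year, sex and globin share. In these data members vary together and the year comparison has no globin term, so its rates and false calls can differ.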

Additional observations from a re-analysis of the deposited data

Results flagged for a closer look

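In groups of 8 or 9 libraries, the 8 of each year and the 9 of the females, the highest and lowest library of each named member, of each complex sum and of the globin and member shares was set against the others of its group with Dixon's criterion. Of 132 groups examined 34 had such a library. Chance gives about 1 in 20 for normally distributed values, but these were compared without a log, so their own rate is not known. The flags fell on 2012 replicate 1 (13), 2014 replicate 4 (19), 2013 replicate 4 (1) and 2013 replicate 8 (1), and the groups are not independent, since members vary together. Values are in scaled TPM unless stated.

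In 2012, replicate 1 was the highest library of its year. It held 811.3 of UQCR gene 7388 (95.1 to 287.8 in the other 7 libraries), 394.5 of COX gene 1351 (162.1 to 237.9), 242.8 of NDUF gene 4695 (123.2 to 165.8) and 135.9 of NDUF gene 4713 (50.2 to 76.8). NDUF genes 4728 (97.6), 4708 (70.1) and 4731 (53.6) and ATP synthase gene 513 (91.7) were likewise high there. So were the sums of complex I (2035), complex III (1074) and complex IV (1399). Its globin share was 54.4% (2.73% to 16.9% in the others), and its share of TPM in the members, 0.242%, was the lowest of its year.

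Among the 9 females, 2014 replicate 4 was the highest. It held 1503 of UQCR gene 7388 (190.0 to 595.3 in the other 8), 33.001 of UQCR gene 7381 (10.0 to 13.9), 200.1 of ATP synthase gene 539 (51.4 to 92.9) and 110.3 of ATP synthase gene 509 (47.7 to 65.8). In complex II it held 207.8 of SDH gene 6392, 35.2 of SDH gene 6391 and 347.4 in sum. Of the NDUF genes, 4725 (192.3), 4697 (167.6), 4708 (87.1), 4711 (57.1), 4709 (54.6), 4704 (51.4), 4701 (37.0) and 4717 (18.1) stood apart in it. The sums of complex III (1854) and complex V (490.9) did so too, and among the 8 libraries of 2014 it was apart in gene 7388 and in the complex III sum.

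In 2013, replicate 4 was apart in NDUF gene 4731 (34.3, against 17.8 to 23.1 in the others), and replicate 8 in UQCR gene 7381 (10.0, against 13.1 to 15.1).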

How the results depend on the processing

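Of the counts of members past the test, those for 2013 minus 2012 and male minus female were 0 under every alternative. In 2014 minus 2012 the count of 4 became 2 (1 higher, 1 lower) on the TPM as deposited, 21 with a filter of 5, 16 with ID rows only and 8 without sex in the model, where 7555, 1023, 445 and 475 of all rows passed. It was 0 with quantile normalisation, without the variance trend, with the day of the year, in males only, without libraries over 40% globin, and with the globin share as a covariate (also without 2012 replicate 1). In 2014 minus 2013 it was 39 with the day of the year (2447 of all rows). The F test gave 1 on the TPM as deposited, 10 with a filter of 5 and 7 with ID rows only (809, 316 and 86 of all rows). The slope gave 47 on the TPM as deposited (46 lower; 33915 of all rows), 2 without year and sex (243 of all rows), and 4, 0 and 0 in 2012, 2013 and 2014 alone. Leaving out 1 library gave 0 to 28 in 2014 minus 2012, 0 to 16 in 2014 minus 2013, 0 to 23 in the F test and 1 for the slope. The alternatives without libraries over 40% globin, with the covariate but without 2012 replicate 1, with single years and with the block were chosen after seeing the data.

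The replicate block used the number in the library titles, which nothing says marks a shared animal or day. Of 18 pairs of libraries with the same number, 7 had deviations correlated above 0.1 (median 0.045). Of 174 pairs with different numbers, 30 did (median -0.005). Whether the numbers mark a shared animal or day was not tested, and the reported fit did not use them to pair samples. That fit gave 25 members (1758 of all rows) in 2014 minus 2012, 11 (331 of all rows) in the F test, and the counts of the fit without it elsewhere.

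Signs turned only in comparisons where that member was short of the test in the reported fit. Genes 4710, 4711, 539, 6392 and 7388, which are among them, passed in another comparison. In males only, gene 498 had 0.048 in 2014 minus 2013 and -0.053 in 2013 minus 2012. With the day of the year, 2013 minus 2012 gave -0.18 for gene 498, -1.08 for 7388 and -0.26 for 7381. Gene 513 had 0.032 without libraries over 40% globin, and -0.25 to 0.0091 with 1 library left out, above 0 without 2013 replicate 2. For male minus female, deposited TPM gave 0.013 for 4704 and 0.0035 for 4710, the globin covariate 0.012 for 7388, and the block -0.0023 for 4713 and -0.022 for 4728. Slopes on the TPM as deposited were -0.11 for 4731, -0.14 for 4708, -0.14 for 4725, -0.27 for 4710, -0.24 for 4711, -0.19 for 539 and -0.34 for 6392. Of these, 4708, 4710, 4711, 539 and 6392 passed there (limma adjusted p 9.11e-05 to 0.0341), as did 33915 of all rows. The slope of 6392 was -0.015 with quantile normalisation, -0.0050 with ID rows only and -0.0024 with the day of the year. That of 4719 was 0.013 without year and sex, 0.034 without libraries over 40% globin, and -0.038 to 0.0058 with 1 library left out, above 0 without 2013 replicate 2. Causes were not tested.

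Over 40 alternatives, the difference of 2014 minus 2012 stayed positive in the 4 members that passed, and passed in 23 for gene 4710, 20 for 6392, 20 for 539 and 19 for 4711 (adjusted p 0.00829 to 0.977 over these). Levels of the 5 complexes moved by less than 1 SD on the TPM as deposited or with the main feature alone. With no read counts, the precision of low members such as genes 1345 and 498 is unknown.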
